A study of Mus musculus with 21 samples.

Results

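Mesoderm progenitors and neuromesodermal progenitors (NMPs) made in culture from mouse embryonic stem cells were compared by RNA-seq, as the libraries named MP diff and NMP diff. They are 2 of the 21 samples of the series, with 1 library a side, so no difference below has a replicate check and none was tested. A gene entered the comparison when it reached 5 FPKM (fragments normalised to transcript length and library depth) in either library, which 8605 of the 23983 genes in the table did. For these the log2 ratio of MP diff over NMP diff was taken after 1 FPKM was added on each side, which makes differences of weakly expressed genes look smaller than they are. At a limit of 3-fold, 165 genes were higher in MP diff (1.92% of those compared) and 260 were lower (3.02%). Embryonic mesoderm progenitors, cultured notochord progenitors and binding sites of T and Foxa2 come from other samples of the study, the embryonic cells also from another cell line, and are given only to describe these genes further.

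Both cell populations came from the same F1G4 embryonic stem cells, of a C57BL/6N x SV129 background, and carried the same 3 transgenes. At the *Rosa26* locus TRE::Foxa2-IRES-EGFP makes *Foxa2* inducible by doxycycline (Dox). The Tet transactivator it needs (irTA) is expressed together with H2B-mCherry from a bacterial artificial chromosome (BAC) with the regulatory sequence of *T*, which also marks the cells, and Noto::H2B-mTurquoise is a BAC reporter of *Noto*. The line is a clone with randomly integrated BACs, which limits what it can stand for. Neither culture received Dox. Cells grew without feeders in N2B27 medium with 10 ng/ml bFGF up to day 3 and with CHIR99021, an inhibitor of GSK3 that activates Wnt signalling, from day 2. NMP diff cells were collected on day 3 (5 µM CHIR99021). MP diff cells were collected on day 4, after a further day with CHIR99021 at a concentration that was not legible in the label, and without bFGF. Age, the loss of bFGF and the longer exposure to CHIR99021 therefore cannot be told apart in this comparison. In both cases cells with *T* reporter and without *Noto* reporter fluorescence were sorted, so the gate reads the reporter proteins and not *T* RNA.

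NMPs are the cells of the caudal embryo that feed both the spinal cord and the paraxial mesoderm, and are commonly recognised by *T* and *Sox2* in the same cell. Mesoderm progenitors leave this state through *Tbx6* and *Msgn1*, the transcription factors of the presomitic mesoderm, and go on to form somites, while cells that leave the primitive streak at other positions form intermediate and lateral plate mesoderm. Wnt and Fgf signals maintain the caudal progenitors, whereas retinoic acid made in the somites opposes them.

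The genes that the cell type names rest on gave a mixed picture. *T* (chr17:8434423-8442496, build GRCm38/mm10) was at 406 FPKM in NMP diff and 25.8 FPKM in MP diff. *Sox2* (chr3:34649995-34652461, inside *Sox2ot*) was low on both sides, with 1.07 FPKM in NMP diff and 3.49 FPKM in MP diff, so it did not enter the comparison. The library labelled NMP diff therefore shows the *T* part of the NMP signature at a high level and the *Sox2* part near the lower end of the scale. *Tbx6* (chr7:126781483-126785548) was higher in MP diff, at 33.2 against 11.1 FPKM, which is a log2 ratio of 1.50 and short of the limit. *Msgn1* (chr12:11208382-11208948) was lower there, at 25.1 against 52.7 FPKM, with a log2 ratio of −1.04. Both libraries thus contained transcripts of both presomitic factors. *Noto*, the notochord gene whose reporter was gated out, had 0.515 FPKM in NMP diff and is listed at 0 in MP diff. *Foxa2*, a factor of notochord and endoderm, had 12.5 and 1.22 FPKM without Dox, and its values do not separate the transgene from the gene itself. The names NMP diff and MP diff are used for the libraries as labelled.

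The libraries were alike in overall composition. FPKM values summed to 403572 in NMP diff and 385607 in MP diff, and 8012 and 7944 genes reached 5 FPKM. The most abundant genes were the same 5 in both, namely *Rn4.5s*, *Eef1a1*, *Rmrp*, *Snord15b* and *Npm1*, of which *Rn4.5s* differed most, with 6180 and 3381 FPKM. Low values of genes with a single transcript were whole multiples of a step set by transcript length, and this step gives the reads behind a value. For NMP diff, 92.2% of 1051 such values lay within 0.1 of a whole number up to 10 reads, and for MP diff 92.8% of 1010. By this step a value of 5 FPKM rests on 140 reads per kilobase in NMP diff and 115 in MP diff. Among the 241 called genes with 1 transcript, the higher library had a median of 1065 reads and never fewer than 57. Counting error is thus small on the higher side of these genes, for instance 400.5 to 411 FPKM (95% interval) for *T* in NMP diff and 24.4 to 27.3 FPKM in MP diff, while the spread between cultures is unknown. For *Sox2* the intervals are 0.831 to 1.33 and 3.02 to 4.01 FPKM, from 73 and 198 reads. Values on the low side can rest on very few reads and are uncertain, and called genes with several transcripts have no read number. In bulk RNA fewer cells of a type and less RNA per cell cannot be told apart, and this holds for every gene below.

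**Figure D1:**
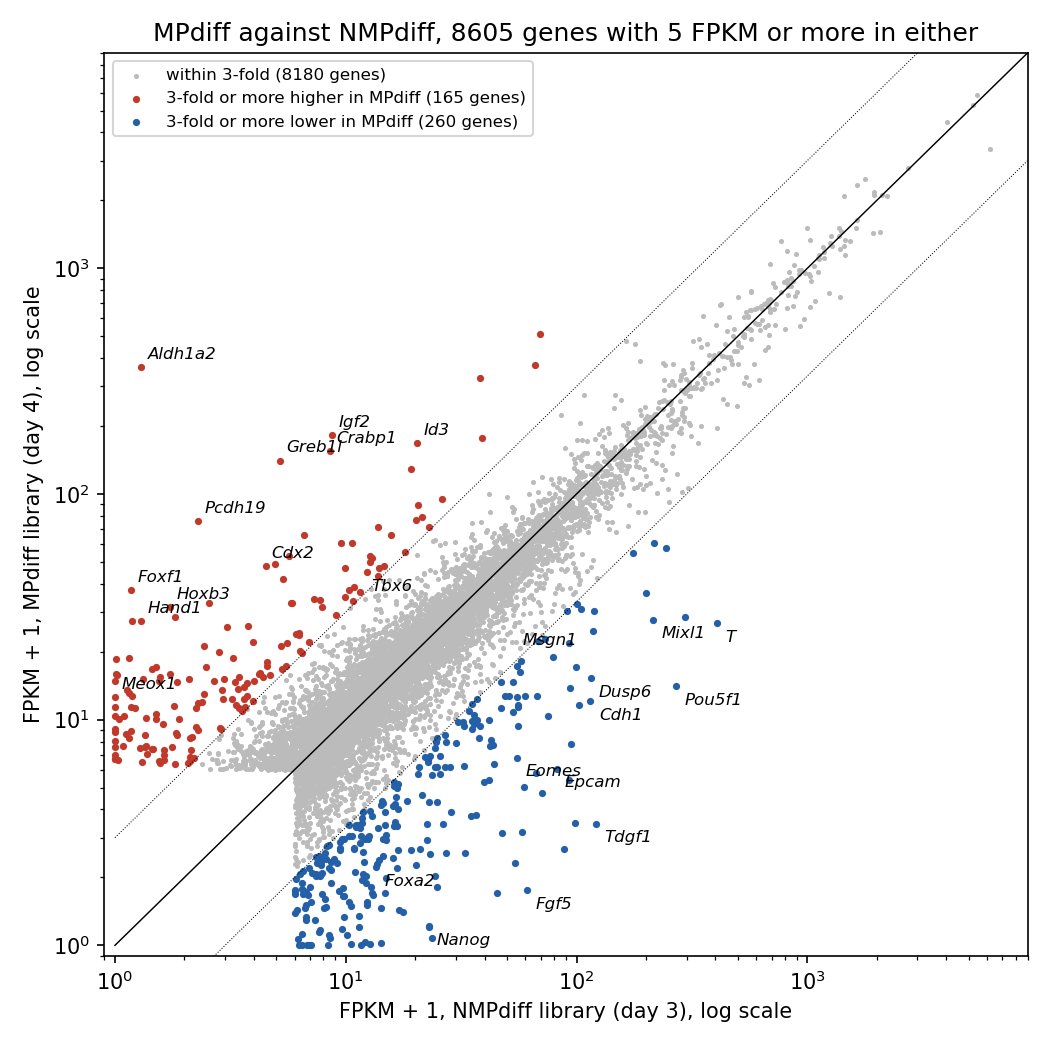
FPKM + 1 of the 8605 compared genes in the NMP diff library (horizontal, log scale) and in the MP diff library (vertical, log scale), 1 point a gene, with the line of equality and dotted lines at 3-fold. The 165 genes above the upper dotted line are red and the 260 below the lower one blue, and *Aldh1a2* lies farthest from equality.

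Paired values from here on are in the order NMP diff, MP diff, and numbers in brackets without a unit are log2 ratios. Across all compared genes the median log2 ratio was −0.03, and 8180 genes lay within 3-fold. The higher genes had a median of 1.82 FPKM in NMP diff and 14.4 FPKM in MP diff, and the lower genes 14.5 and 2.02 FPKM. Many genes were near absent on the low side. Of the higher genes, 63 were under 1 FPKM in NMP diff and 10 of these are listed at 0, while 42 already had 5 FPKM or more. Of the lower genes, 70 were under 1 FPKM in MP diff and 7 are listed at 0, while 76 kept 5 FPKM or more. At the limit itself the calls are arbitrary. *Limch1* (1.61) and *Fzd10* (1.62) were just inside on the higher side and *Mthfd2l* and *Pdgfra* (both 1.58) just outside. On the lower side *Fos* and *Pawr* (both −1.59) were just inside and *Bcam* and *Egr3* (both −1.58) just outside.

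*Aldh1a2*, which encodes the enzyme that makes retinoic acid in the trunk mesoderm, had the largest ratio. It had 0.301 FPKM in NMP diff (19 reads) and 364 FPKM in MP diff (18976 reads), a log2 ratio of 8.13, and it lies at chr9:71215789-71296243. The next largest ratios were those of *Pcdh19* (5.05; 1.29 and 74.9 FPKM in NMP diff and MP diff), a protocadherin, and *Foxf1* (5.00; 0.177 and 36.6 FPKM), a transcription factor of lateral plate mesoderm. *Greb1l* had 4.19 and 140 FPKM (4.76), *Tmem132c* 0.182 and 26.4 FPKM (4.53), and *Hand1*, another lateral plate factor, 0.302 and 26.4 FPKM (4.40). Most of these genes therefore had little or no RNA in NMP diff and were well expressed in MP diff. *Igf2*, the imprinted growth factor gene, had 7.71 and 181 FPKM (4.38), and *Crabp1*, which encodes a retinoic acid binding protein, 7.53 and 154 FPKM (4.18). *Meis1*, a homeodomain cofactor of Hox proteins, had 0.0106 and 17.6 FPKM (4.20) and *Prrx2*, a homeobox gene of mesenchyme, 0.825 and 27.5 FPKM (3.96). Among the 15 largest ratios were further *Hoxb3*, *Hoxd3*, *Hoxd4* and *Hoxd9*, described with their clusters. The remaining one, *Hist2h2aa2* (0.00187 and 13.9 FPKM), is a histone gene with near-identical copies, whose reads cannot be assigned with certainty.

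In the other direction genes of the pluripotent epiblast and of the early streak led. *Tdgf1* (chr9:110939608-110946158), which encodes a co-receptor of Nodal, had 121 FPKM in NMP diff and 2.46 FPKM in MP diff (−5.13), and *Fgf5*, a ligand of the primed epiblast, 60.2 and 0.761 FPKM (−5.12). *L1td1*, a gene of pluripotent cells, had 87.2 and 1.68 FPKM (−5.04), and the kinase gene *Pim2* 97.5 and 2.49 FPKM (−4.82). *Pou5f1* (chr17:35506032-35510777) and *Nanog* (chr6:122707489-122714633), core pluripotency factors, had 269 and 13.1 FPKM (−4.26) and 21.8 and 0.216 FPKM (−4.23). NMP diff cells thus still contained RNA of genes that define the cells they were made from. *Apln*, the gene of the peptide apelin, had 52.9 and 1.33 FPKM (−4.54), *Pla2g1b*, a phospholipase gene, 22.7 and 0.0788 FPKM (−4.46), and *Mt2*, a metallothionein gene, 57.1 and 2.19 FPKM (−4.19). *T* came next at −3.92, with *Cldn4*, a tight junction gene (46.3 and 2.14 FPKM; −3.92), and *Epha2*, an ephrin receptor gene (70.2 and 3.73 FPKM; −3.91). The other 3 of the 15 were *Psors1c2* (21.9 and 0.206 FPKM; −4.24), the neighbour of *Pou5f1* among the compared genes, and 2 genes whose reads are hard to assign. These are *Snurf* (44.2 and 0.700 FPKM; −4.73), which overlaps *Snrpn* and *Snhg14*, and *Hist1h2ap* (92.2 and 4.42 FPKM; −4.11), of a multi-copy histone family.

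Markers of pluripotency were mostly lower in MP diff. The list of epiblast and general pluripotency genes has 13 members, of which 10 entered the comparison, 6 were lower and 0 higher, and its median was −1.93 beside −0.03 over all compared genes. Apart from *Fgf5* and *Pou5f1*, the lower members were *Utf1* (11.2 and 0.0375 FPKM in NMP diff and MP diff), *Otx2* (13.7 and 0.701 FPKM), *Pou3f1* (6.86 and 0.693 FPKM) and *Dppa4* (5.10 and 0.964 FPKM). Of the lower members only *Pou5f1* reached 5 FPKM in MP diff, so the direction of the others follows from the minimum. Over all 13 genes the median was −1.32. *Lin28a* and *Sall4*, which caudal progenitors also use, lay close to 0 on the log2 scale (0.14 and 0.16). Of 12 naive pluripotency genes 4 entered, with 3 lower and 1 higher (median −2.77, and −0.87 over all 12). *Klf5* (54.9 and 10.4 FPKM) and *Dppa5a* (10.4 and 0.204 FPKM) were lower besides *Nanog*. The higher one, *Tbx3* (0.0463 and 9.10 FPKM), is a T-box factor that is also known from lateral plate mesoderm. Only *Klf5* passed the minimum on both sides, so the direction of *Nanog*, *Dppa5a* and *Tbx3* follows from the minimum. The defining naive genes *Esrrb*, *Klf2* and *Zfp42* did not reach 5 FPKM on either side, with 0.290, 1.40 and 4.36 FPKM in NMP diff. The RNA of this list summed to 98.1 FPKM in NMP diff and 23.0 FPKM in MP diff.

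Primitive streak genes were mostly lower in MP diff. All 11 genes of streak and nascent mesendoderm entered, 9 were lower and 0 higher, with a median of −2.70, and their summed level was 838 FPKM in NMP diff and 126 FPKM in MP diff. All 11 reached 5 FPKM in NMP diff and 6 in MP diff. *Gsc*, *Nodal*, *Tdgf1*, *Lefty2* and *Wnt3* entered through NMP diff alone, so their direction follows from the minimum. No member was left out by the minimum. *Fst*, which encodes the activin antagonist follistatin, had 295 and 27.5 FPKM (−3.38), *Mixl1* 214 and 26.8 FPKM (−2.95) and *Eomes*, a T-box factor of the early streak, 54.1 and 5.80 FPKM (−3.02). *Gsc* (11.2 and 0.889 FPKM) and *Lhx1* (37.0 and 8.36 FPKM), which mark anterior streak derivatives, were lower too. *Mesp1* (14.9 and 9.85 FPKM; −0.56) and *Snai1* (40.2 and 38.2 FPKM; −0.07), genes of cells that ingress, were within 3-fold. The Nodal pathway list overlaps this one. Of its 9 genes 5 entered, and 4 of these were lower, namely *Nodal* (18.1 and 1.64 FPKM), *Tdgf1* and the antagonist genes *Lefty1* (7.44 and 0.108 FPKM) and *Lefty2* (21.5 and 2.46 FPKM), with 0 higher and a list median of −2.86. The ligand, co-receptor and antagonist genes of this list that entered were therefore all lower in MP diff. The transcriptional partner *Foxh1* was at 27.4 and 25.7 FPKM (−0.09). *Foxh1* alone of the list reached 5 FPKM in MP diff, so the direction of the lower ones follows from the minimum. *Cfc1*, another co-receptor gene, which is not in the list, was higher, with 0.345 and 6.58 FPKM (2.49).

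Caudal progenitor factors split. Of the 14 genes of NMPs and the caudal epiblast 11 entered, 1 was higher and 3 were lower, with a median of −0.85. The lower ones were *T*, *Nkx1-2*, a homeobox gene of the caudal lateral epiblast (41.5 and 7.13 FPKM; −2.39), and *Wnt3a* (11.8 and 2.94 FPKM; −1.70). The higher one was *Cdx2*, a caudal homeobox factor upstream of trunk *Hox* genes, with 3.49 FPKM in NMP diff and 47.0 FPKM in MP diff (3.42). Its relatives differed less, *Cdx1* with a log2 ratio of 0.41 and *Cdx4* with 0.315 and 2.26 FPKM, the latter too low to enter. *Cyp26a1*, which breaks down retinoic acid, was just within the limit (23.3 and 7.15 FPKM; −1.57), and *Fgf8* had 36.6 and 17.6 FPKM (−1.02). *Sp5*, *Sp8*, *Evx1* and *Wnt8a* lay between −0.85 and −0.58.

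Part of the presomitic mesoderm genes were higher in MP diff. Out of 13 genes 12 entered, 5 were higher and 0 lower, and the median was 1.36. *Dll1*, the Notch ligand gene of this tissue, had 19.6 and 88.2 FPKM (2.11), *Hes7*, a gene of the segmentation clock, 2.42 and 12.7 FPKM (2.00), and *Cited1* 6.86 and 30.5 FPKM (2.00). The other higher members were *Rspo3*, a Wnt agonist gene (25.3 and 93.8 FPKM; 1.85), and *Nrarp*, a Notch feedback gene (13.6 and 47.1 FPKM; 1.72). *Mesp2*, which marks the next segment border, had 1.76 and 5.43 FPKM, and *Dll3* was equal at 29.2 and 29.8 FPKM. The list of 16 Notch receptors, ligands and targets shares *Dll1*, *Hes7* and *Nrarp* with it. There 11 genes entered and 4 were higher, the fourth being *Hey1* (2.21 and 11.4 FPKM; 1.94), with 0 lower and a median of 1.47. *Notch1* (13.5 and 40.2 FPKM; 1.51) and *Jag1* (6.78 and 20.5 FPKM; 1.47) were short of the limit, and *Hes1* had the opposite direction (68.6 and 31.3 FPKM; −1.11).

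All 5 somite genes that entered, out of 13 listed, were higher in MP diff (median 2.81). Besides *Aldh1a2* they were *Meox1*, an early somite homeobox gene that is listed at 0 in NMP diff and had 11.6 FPKM in MP diff, the forkhead genes *Foxc2* (0.513 and 9.64 FPKM) and *Foxc1* (8.97 and 33.9 FPKM), and *Twist1* (5.25 and 23.3 FPKM). Only *Foxc1* and *Twist1* reached 5 FPKM in NMP diff, so the direction of the others follows from the minimum. Over all 13 listed genes the median was 1.08. Genes of formed somites stayed under 5 FPKM on both sides, with *Tcf15* at 2.85, *Pax3* at 1.10 and *Meox2* at 1.18 FPKM in MP diff, and *Pax1*, *Pax9* and *Myf5* listed at 0 there. The genes that entered are not particular to paraxial mesoderm, and *Aldh1a2* alone makes up most of the list's sum of 449 FPKM in MP diff, beside 16.03 FPKM in NMP diff. Retinoic acid genes beyond *Aldh1a2* were few. Of 15 genes 9 entered and 3 were higher, *Aldh1a2*, *Crabp1* and the vitamin A transporter gene *Stra6* (1.48 and 16.2 FPKM; 2.80), with 0 lower and a median of 0.62. *Rdh10*, whose product makes the precursor retinaldehyde, had 7.70 and 18.3 FPKM (1.15). The receptor genes *Rara* (6.77 and 11.0 FPKM) and *Rarg* (11.0 and 7.44 FPKM) lay on either side of 0, and *Rarb*, a known target of the pathway, stayed at 0.477 FPKM in MP diff.

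Lateral plate genes were present as well. Of 12 genes of lateral plate and heart 5 entered, 4 were higher and 0 lower (median 3.28): *Foxf1*, *Hand1*, *Prrx1* (0.169 and 10.3 FPKM) and *Bmp4* (0.737 and 15.0 FPKM). These 4 were under 1 FPKM in NMP diff and entered through MP diff alone, so their direction follows from the minimum. The median over all 12 genes was 1.00. The summed level of the 12 genes was 9.86 FPKM in NMP diff and 102 FPKM in MP diff, while it was 12.7 FPKM in NotoP diff, the third cultured library. The cardiac genes *Nkx2-5*, *Tbx5*, *Tbx20* and *Hand2* were below 1 FPKM in MP diff, with *Nkx2-5* listed at 0. For intermediate mesoderm, *Osr1* is listed at 0 in NMP diff and had 7.78 FPKM in MP diff, and *Lhx1* was lower, so the 2 of 7 genes that entered had a median of 0.56. *Pax2* and *Pax8* stayed under 2 FPKM on both sides. Whether MP diff contained separate paraxial and lateral cells, or cells with both sets of transcripts, cannot be told apart in bulk RNA.

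Targets of BMP signalling were higher alongside *Bmp4*. Of 15 BMP ligands, antagonists and targets 9 entered, 6 were higher and 0 lower, with a median of 2.41. *Id2* had 5.61 and 64.6 FPKM (3.31), *Id3* 19.4 and 167 FPKM (3.04) and *Id1* 12.8 and 70.4 FPKM (2.37), all of them direct BMP targets that encode inhibitors of bHLH factors. The homeobox genes *Msx2* (0.215 and 10.3 FPKM; 3.21) and *Msx1* (0.891 and 9.07 FPKM; 2.41) were higher too. Ligand and targets therefore had the same sign, as did the inhibitory Smad genes *Smad7* (1.55 and 6.12 FPKM; 1.48) and *Smad6* (1.93 and 5.56 FPKM; 1.16), which were within 3-fold. *Bmp7* had 9.52 and 5.41 FPKM (−0.71), and the antagonist genes *Nog* and *Chrd* stayed under 2 FPKM on both sides.

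*Hox* genes that entered were nearly all higher in MP diff. Of the 39 genes in 4 clusters 18 entered, 17 were higher in MP diff and 0 lower, with a median of 3.38, and the clusters order genes along the chromosome as they are used along the body axis. In the *HoxA* cluster 5 of 11 entered and all 5 were higher, among them *Hoxa2* (0.444 and 15.8 FPKM; 3.54) and *Hoxa5* (listed at 0 and 10.4 FPKM), while *Hoxa7* reached 0.936 FPKM and *Hoxa9* 0.0942 FPKM. In the *HoxB* cluster 8 of 10 entered and 7 were higher, led by *Hoxb3* (0.736 and 30.6 FPKM; 4.18). *Hoxb9* (0.0929 and 9.42 FPKM; 3.25) was the most posterior of them. Only *Hoxb1*, the 3′ gene, was within 3-fold, at 23.5 and 61.5 FPKM (1.35), and it was the one with the highest level in NMP diff. In the *HoxD* cluster 5 of 9 entered and all were higher, with *Hoxd4* at 0.0140 and 15.0 FPKM (1 and 882 reads) and *Hoxd9* at 0.0171 and 14.8 FPKM (1 and 713 reads). No *HoxC* gene entered, the largest value being 3.40 FPKM for *Hoxc4* in MP diff. Genes of paralog groups 10 to 13 were under 1 FPKM in MP diff in every cluster. *Hoxb3* overlaps *Hoxb4*, and *Hoxd3* overlaps *Hoxd4*, so their reads may be shared in part.

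**Figure D2:**
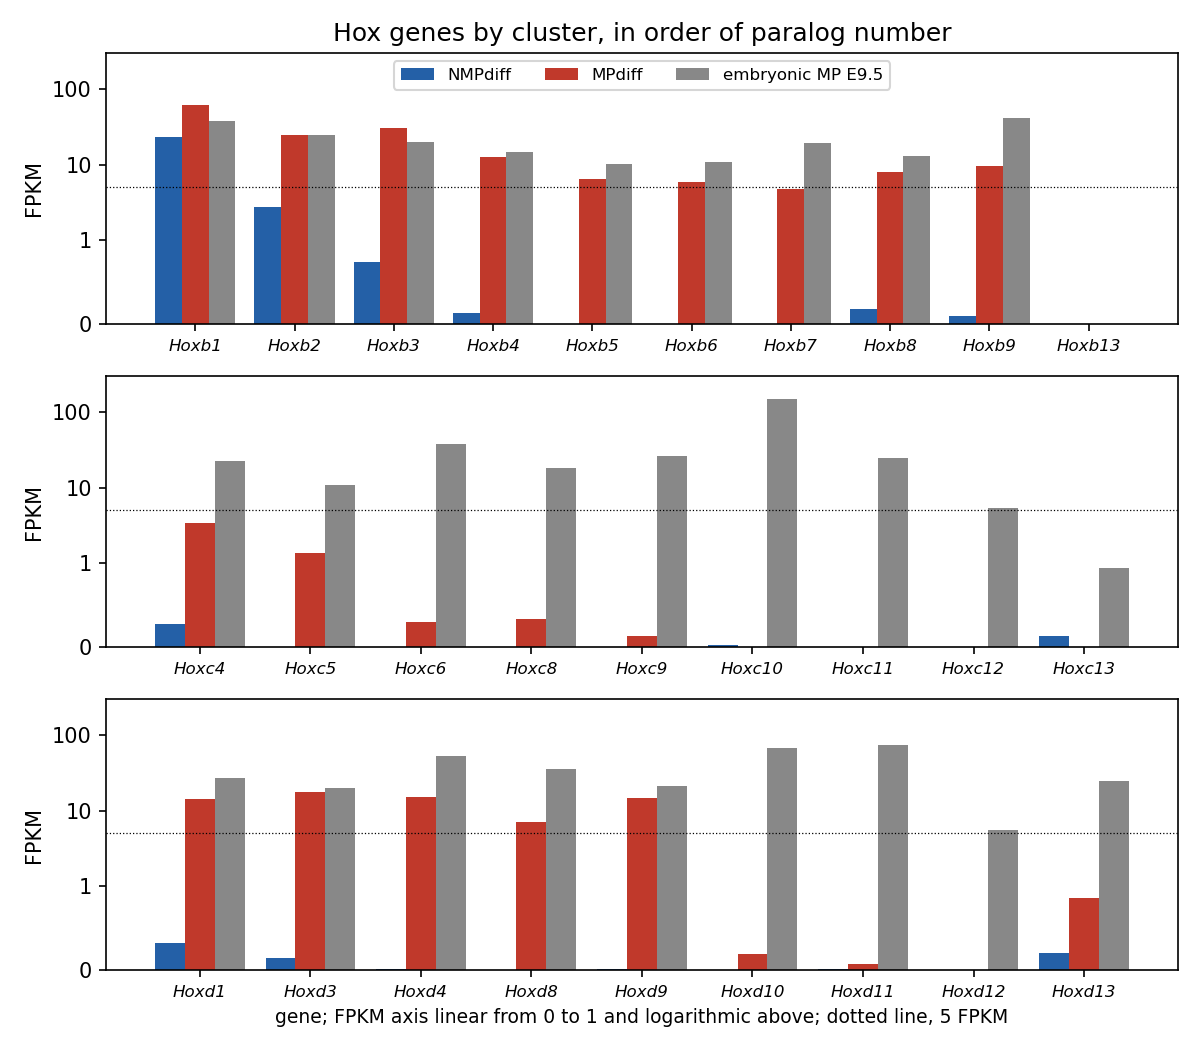
FPKM of the *HoxB*, *HoxC* and *HoxD* genes in NMP diff (blue), MP diff (red) and embryonic E9.5 MPs (grey, sequenced on another instrument, so its levels are shown beside the others and not as ratios), 1 library each, with an axis that is linear from 0 to 1 and logarithmic above. MP diff bars pass the dotted line at 5 FPKM for 8 genes of the *HoxB* cluster, 5 of the *HoxD* cluster and 0 of the *HoxC* cluster. *Hoxc10* and *Hoxd11*, the most abundant genes of their clusters in the embryonic library, have 151 and 74.5 FPKM there.

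Wnt and Fgf genes differed in a less uniform way. Of 14 Wnt feedback and target genes 10 entered, 3 were higher and 0 lower (median 0.78). The higher ones were *Nkd1* (8.91 and 45.9 FPKM; 2.24) and *Notum* (2.75 and 13.6 FPKM; 1.96), which encode inhibitors, and the receptor gene *Fzd10* (17.1 and 54.6 FPKM; 1.62). *Axin2*, the most widely used target, had 35.0 and 61.5 FPKM (0.80), *Lef1* 103 and 205 FPKM (0.98) and *Sp5* 71.1 and 39.1 FPKM (−0.85), in cells that were exposed to CHIR99021 on both sides. Among 19 Wnt ligands 6 entered, 2 were lower, *Wnt3* (11.5 and 2.01 FPKM; −2.05) and *Wnt3a*, and 0 higher, with a median of −1.23. *Wnt5a* had the opposite sign, with 8.75 and 24.7 FPKM (1.40). Of 13 Fgf ligands 4 entered, with *Fgf5* lower, 0 higher and a median of −0.38, and of 5 receptors *Fgfr1* was equal at 35.3 and 36.6 FPKM. Fgf feedback and target genes were represented by 11 of 12 members. Of these 2 were lower, *Dusp6*, which encodes a phosphatase of ERK (114 and 14.3 FPKM; −2.92), and *Spry4* (31.3 and 8.72 FPKM; −1.73), and 0 were higher, with a median of −0.61. *Dusp4* (39.8 and 14.2 FPKM; −1.42), *Etv5* (−0.79) and *Etv4* (−0.75) had the same sign, while *Spred1*, *Spred2* and *Il17rd* lay within 0.06 of 0. The ligand bFGF was in the medium of the NMP diff culture and not in that of MP diff after day 3. Its part in these values was not tested and cannot be told apart from age and the longer exposure to CHIR99021.

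Epithelial genes were lower in MP diff. The list of 18 epithelial and mesenchymal genes had 16 in the comparison, 8 of them lower and 1 higher, with a median of −1.13. All 8 lower genes are epithelial: *Cldn4*, *Epcam* (81.0 and 5.06 FPKM; −3.76), *Cdh1*, the E-cadherin gene (114 and 11.1 FPKM; −3.25), *Esrp1*, a splicing factor gene of epithelia (22.3 and 1.53 FPKM; −3.20), *Cldn7*, *Krt8*, *Krt18* and *Cldn6*. The mesenchymal genes were expressed on both sides, with *Vim* at 136 and 135 FPKM, *Cdh2* at 82.1 and 72.0 FPKM and *Snai1* as given, and *Twist1* was the higher gene. The difference thus concerned the epithelial genes of the list and not *Vim* or *Cdh2*. *Fn1* (162 and 477 FPKM; 1.55) and *Zeb1* (3.46 and 10.2 FPKM; 1.33) were just short of the limit. Of 18 extracellular matrix genes 13 entered, 4 were higher and 0 lower (median 0.89, and 0.62 over all 18). The higher ones were *Lama1* (2.45 and 14.4 FPKM), *Col2a1* (0.552 and 5.55 FPKM), *Has2* (1.98) and *Fbn2* (3.27 and 15.0 FPKM). These 4 entered through MP diff alone, so their direction follows from the minimum. *Lama5* was lower but within 3-fold (29.2 and 9.65 FPKM; −1.50). Among 16 Eph receptors and ephrins 11 entered and 2 were lower, *Epha2* and *Epha1* (74.0 and 9.42 FPKM; −2.85), with 0 higher and a median of 0.24.

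**Figure D3:**
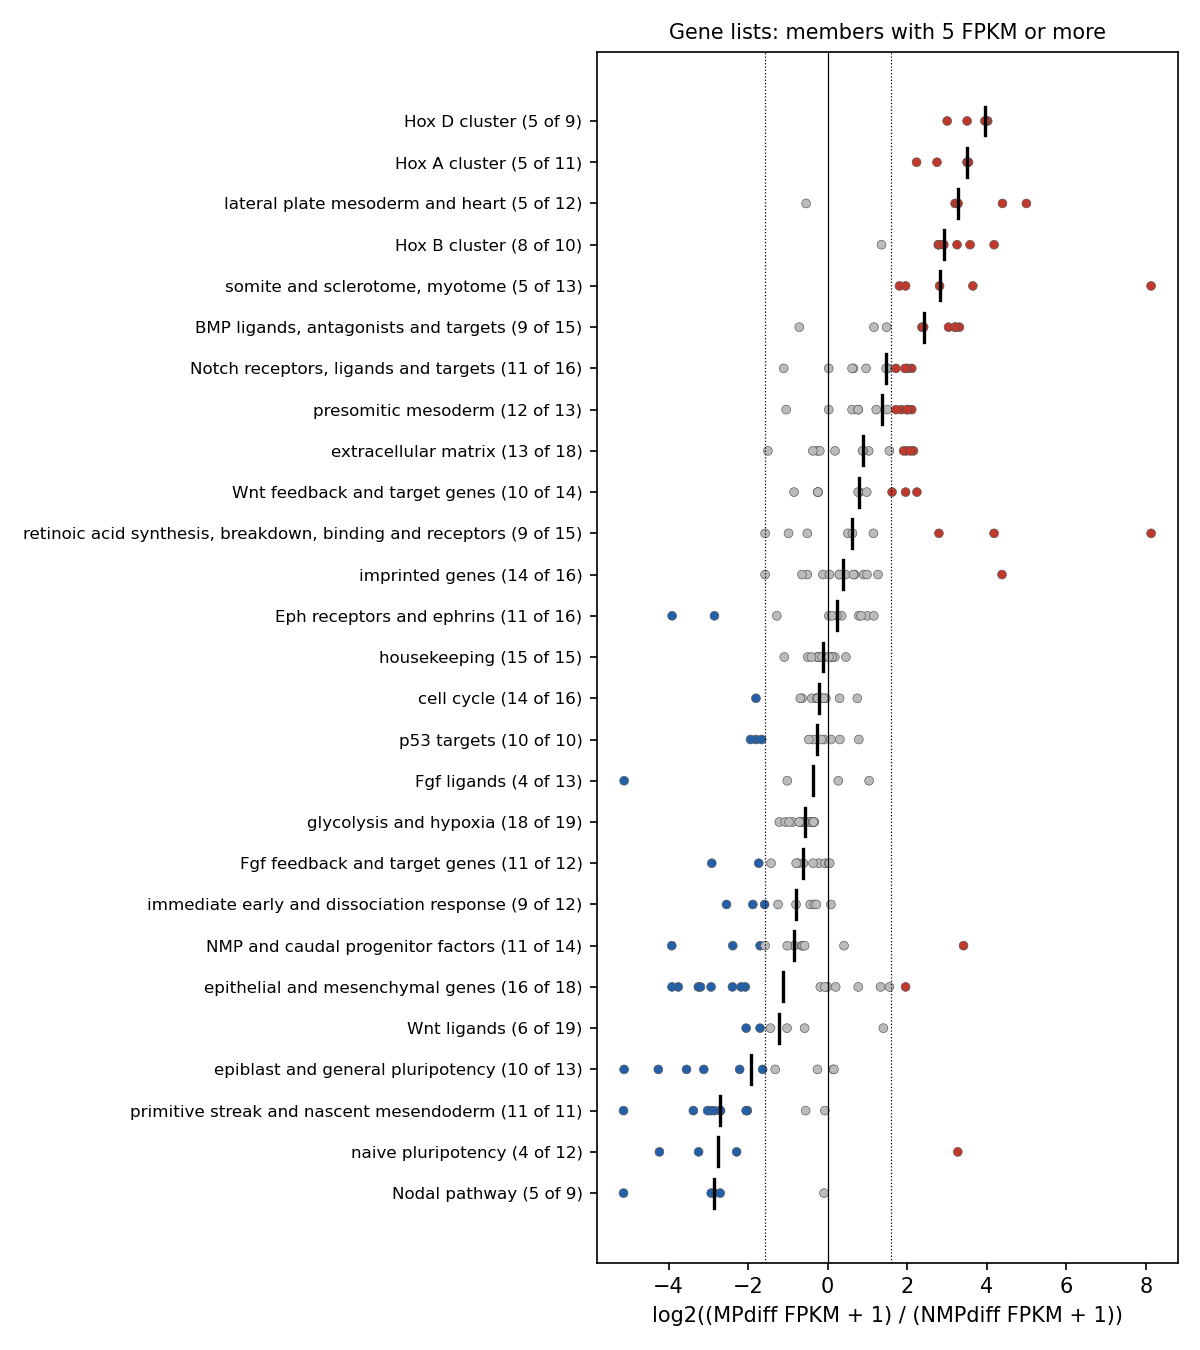
Log2 ratio of MP diff over NMP diff (horizontal) for the members of each gene list with at least 4 genes in the comparison, 1 point a gene, red where 3-fold or more higher, blue where 3-fold or more lower and grey within 3-fold; black ticks are list medians and dotted lines the 3-fold limit. Medians run from −2.86 for the Nodal pathway to 3.95 for the *HoxD* cluster, and housekeeping genes centre on −0.12.

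The fixed lists of general cell functions had few genes past the limit, apart from p53 targets. Of 16 cell cycle genes 14 entered, 1 was lower and 0 higher (median −0.23), and *Mki67* (94.5 and 91.5 FPKM) and *Top2a* (174 and 157 FPKM) were nearly equal. The lower gene was *Cdkn1a*, which encodes the inhibitor p21 (55.9 and 15.3 FPKM; −1.80). It is also 1 of 3 lower genes among 10 p53 targets, all of which entered (0 higher; median −0.26), with *Perp* (15.0 and 3.16 FPKM; −1.94) and *Sesn2* (33.4 and 9.87 FPKM; −1.66), whereas *Mdm2* was at 33.3 and 31.4 FPKM. Of 19 glycolysis and hypoxia genes 18 entered and 0 passed the limit in either direction, but all 18 had ratios below 0, with a median of −0.58 and *Slc2a1*, a glucose transporter gene, at the low end (100.0 and 42.5 FPKM; −1.22). Among 16 imprinted genes 14 entered, *Igf2* was higher and 0 were lower (median 0.37), and *Snrpn* was just within 3-fold (88.8 and 29.2 FPKM; −1.57). The 15 housekeeping genes all entered, 0 passed the limit and their median was −0.12, with *Hprt* lowest (83.2 and 38.5 FPKM; −1.09).

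Markers of other cell types that the sort could have carried along were low. Of 13 neural progenitor genes 0 entered, and they summed to 12.3 FPKM in NMP diff and 12.6 FPKM in MP diff, the most abundant being *Olig2* (4.32 FPKM) and *Sox2*. *Hes5* and *Dbx1* are listed at 0 in NMP diff, and *Olig2* and *Neurog2* in MP diff. The 9 notochord genes summed to 18.7 FPKM in NMP diff, 12.5 of it *Foxa2*, and to 5.00 FPKM in MP diff, with *Shh* listed at 0 in both and *Noto* in MP diff, beside 303 FPKM in NotoP diff. For 10 endoderm genes the sums were 23.6 and 7.01 FPKM, again with *Foxa2* the most abundant in NMP diff, with *Sox17* at 0.599 and 0.545 FPKM and *Afp* listed at 0 in both and *Ttr* in MP diff. The 11 genes of endothelium and blood summed to 11.1 and 27.4 FPKM, mostly *Lmo2* (8.20 and 20.5 FPKM), with *Gata1* listed at 0 in both, *Hbb-bh1* in NMP diff and *Cdh5* in MP diff. Fibroblast genes, which would mark leftover feeder cells, summed to 11.1 and 12.1 FPKM over 10 genes, with *Thy1* (4.42 FPKM) and *Fbn1* (5.60 FPKM) the most abundant and *Lum* listed at 0 in both, *Postn* in NMP diff and *S100a4* in MP diff. *Foxa2* was the only gene of these 5 lists that entered and was past the limit. Among neural progenitor genes 1 was higher and 1 lower at a minimum of 1 FPKM. Immediate early genes, which respond to cell dissociation, differed more. Of 12 genes 9 entered, 3 were lower in MP diff and 0 higher (median −0.80), *Atf3* (8.69 and 0.660 FPKM), *Fosb* (7.87 and 1.40 FPKM) and *Fos* (23.8 and 7.27 FPKM), and the list summed to 220.5 and 159 FPKM, with *Egr1* the most abundant at 70.5 and 74.7 FPKM and 0 genes listed at 0. Their part in the other differences was not tested.

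The called genes were then read in libraries that the choice did not use. Embryonic MPs came from another F1G4 line, with the BAC reporters T::H2B-Venus, Noto::H2B-mCherry and Foxa2::H2B-mTurquoise, from which embryos were made. The sample labels and the paper name different methods for this, tetraploid complementation and diploid morula aggregation. In these MPs, sorted as *T* reporter positive cells without *Noto* and *Foxa2* reporters, 118 of the 165 higher genes (71.5%) had 5 FPKM or more in the E8.5 library. The E9.5 library gave 118 as well, and 100 genes (60.6%) passed at both stages. For the 260 lower genes these numbers were 71 (27.3%), 66 (25.4%) and 41 (15.8%), and over all compared genes 76.7%, 84.8% and 72.3%. Called genes mostly entered through 1 of the cultured libraries, whereas 7351 of the compared genes passed the minimum in both, so lower shares than over all compared genes are partly built into the choice. Median levels of the higher genes were 11.4 FPKM at E8.5 and 13.2 FPKM at E9.5, those of the lower genes 0.403 and 1.27 FPKM, and those of all compared genes 15.2 and 15.0 FPKM. The embryonic libraries were sequenced on another instrument, so no ratio between them and the cultured ones was formed, and the E8.5 library came from very few cells, which makes a 0 there less telling. *Tdgf1*, *Nanog*, *Pla2g1b*, *Psors1c2* and *Nodal* are listed at 0 in both embryonic MP libraries, and *Pou5f1* had at most 0.923 FPKM. Of the higher genes 9 were below 1 FPKM in both, including *Ntm* and *Trh* (both chosen after their values were seen), with 14.4 and 13.9 FPKM in MP diff.

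Levels of single genes are listed here side by side, and because of the different instruments no cultured level is called higher or lower than an embryonic one. *Foxf1* and *Hand1* had 26.8 and 10.9 FPKM in E8.5 MPs and 0.566 and 0.241 FPKM in E9.5 MPs, with 36.6 and 26.4 FPKM in MP diff. *Aldh1a2* had 16.05 and 7.88 FPKM in embryonic MPs, beside 364 FPKM in MP diff. *T* was at 74.8 and 160 FPKM there, and *Cyp26a1* at 29.1 and 78.3 FPKM, beside 25.8 and 7.15 FPKM in MP diff. *Cdx4* had 150 and 107 FPKM in the embryo and 2.26 FPKM in MP diff, and *Hoxb9* 127 and 41.2 FPKM beside 9.42 FPKM. *Cdx2* had 50.8 and 52.7 FPKM there beside 47.0 FPKM. These genes were picked after their values were seen and do not stand for the caudal list as a whole.

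NotoP diff cells, which share day 4 and CHIR99021 with MP diff but received 1 ng/ml Dox and were sorted for both reporters, were read in the same way. Of the higher genes 97 (58.8%) and of the lower genes 157 (60.4%) had 5 FPKM or more, beside 91.6% of all compared genes, with medians of 7.22, 6.67 and 15.3 FPKM. The same selection applies here. For the lower genes the matching number in MP diff is 76. *Pou5f1* (10.7 FPKM) and *Tdgf1* (2.60 FPKM) were close to their MP diff levels of 13.1 and 2.46 FPKM. *T* (375 FPKM), *Epha2* (90.3 FPKM), *Cdh1* (88.5 FPKM) and *Mt2* (59.0 FPKM) lay far above their MP diff levels of 25.8, 3.73, 11.1 and 2.19 FPKM. *Foxf1* (0.0402 FPKM) and *Hand1* (0.0513 FPKM) were near absent, and *Aldh1a2* had 70.3 FPKM.

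By position, some called genes were neighbours among the compared genes. There were 11 runs of adjacent higher genes with 35 members, among them *Hoxb9* to *Hoxb2* with 7 genes (chr11:96271330-96354020) and *Hoxd9* to *Hoxd1* with 5 genes (chr2:74697763-74765142). *Foxf1* stood beside *Fendrr*, the long noncoding RNA gene that adjoins it (listed at 0 and 5.66 FPKM). Lower genes formed 18 runs with 36 members and none longer than 2 genes, among them *Krt8* with *Krt18*, *Mt1* with *Mt2*, *Zic2* with *Zic5* and *Pou5f1* with *Psors1c2*. Most of the higher genes in runs lie at *Hox* clusters, and the other higher runs are pairs. No background share was computed for such runs, so higher and lower genes are not compared in this. Higher genes had a median span of 35367 bp and lower genes of 15354 bp, beside 23982.5 bp over all compared genes with a position. Another annotated gene overlapped 55.8% of the higher, 39.1% of the lower and 46.4% of all compared genes.

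Binding of T was read from peaks of unsorted day 4 cultures with Dox, made to contain notochord progenitors, which are not the cells compared. A T peak summit lay within 5000 bp of a transcription start for 28 of 165 higher genes (16.97%), 26 of 258 placed lower genes (10.1%) and 700 of 8578 compared genes (8.16%). Median distances to the nearest summit were 53686, 84260.5 and 97424 bp. For Foxa2, whose list is larger with 22684 peaks against 6875 for T, the shares were 15.8%, 12.8% and 11.4%. Higher genes thus had a T peak near the start more often than compared genes in general, with a smaller gap for Foxa2, and gene clusters share peaks, so genes are not independent here. Within 1000 bp the share was 4.85% for higher, 3.49% for lower and 4.97% for all genes, so this order does not hold at the shortest distance. The 8 higher genes within 1000 bp include *Hoxa2*, *Hoxa4*, *Hoxd1* and *Notum*, and the 9 lower genes include *T*, *Foxa2*, *Otx2* and *Dusp6*.

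Sequences around summits were read for 6 genes with a T peak this close, and the 2 with a T core are shown as examples. The windows of *T*, *Msgn1* and 2 other genes hold none. Each line gives the 101 bases around the summit on the forward strand of GRCm38/mm10, with the letters TCACAC or GTGTGA, the core of the T site chosen after the longer site had proved rare, in capitals, which in the *Hoxa4* window lie at the edge and not at the summit. The *Hoxa4* window is chr6:52190816-52190916, in an intron of *Hoxa4* (a reverse strand gene, inside the longer span of *Hoxa3*) with a summit at fold enrichment 10.8, and that of *Pkdcc*, a lower gene (10.6 and 2.04 FPKM) chosen after its values were seen, is chr17:83214253-83214353 in an exon of *Gm34686*, on the reverse strand, 980 bp before *Pkdcc*, with fold enrichment 22.2.
Hoxa4 summit: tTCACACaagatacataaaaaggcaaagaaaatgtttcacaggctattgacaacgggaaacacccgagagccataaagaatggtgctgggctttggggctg
Pkdcc summit: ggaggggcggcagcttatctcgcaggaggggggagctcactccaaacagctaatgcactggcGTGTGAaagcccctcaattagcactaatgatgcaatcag
The core was found in 23.4% of 6871 T windows and 12.3% of 22680 Foxa2 windows of this length, and the full site, TCACACCT or AGGTGTGA, in 2.97% and 0.489%.

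The same full site was searched on both strands in promoters of RefSeq (GRCm38.p6), from 250 bases before to 50 after each start. It was found for 1 of 118 higher genes with a promoter sequence (0.847%), 5 of 194 lower genes (2.58%) and 58 of 6885 compared genes (0.842%), and in 1.28% of all 32851 promoters. The core of Tcf and Lef sites, TTTGAT or ATCAAA, was found in 7.63%, 11.9% and 8.57%, and in 11.9% of all promoters. The higher gene with a T site is *Hoxd9*, and *Psors1c2* is the one among the named lower genes besides *Cdkn1a*. They are shown with the site in capitals, at chr2:74697600-74697639 and chr17:35532951-35532985 on the forward strand, which is that of both genes, before the start and outside any annotated gene.
Hoxd9 promoter: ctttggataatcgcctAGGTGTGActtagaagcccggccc
Psors1c2 promoter: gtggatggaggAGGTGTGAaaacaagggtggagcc
A match of letters is a description of these windows and does not show binding.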

How the data were processed

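RNA-seq values are those of the 2 compared cultures, with NotoP diff cells and embryonic MPs of E8.5 and E9.5 read beside them, 1 library each. The authors sorted cells, made libraries with unique molecular identifiers, aligned reads to mm10 and deposited FPKM values, for which the submitters' processing notes name TopHat2 2.1.1, Bowtie 1.2.2 and Cufflinks 2.2.1. The authors' T and Foxa2 peak lists come from MACS3 3.0.0b1, and the deposited peaks give a fold enrichment, a ratio over background at the summit, and −log10 of q. Columns that belong to no sample numbered 0, and those of embryonic NotoPs and trunk notochord are not described here.

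The comparison and the gene lists were chosen with earlier results of these data known. Named genes are the 15 largest and 15 smallest ratios (leaving out small RNA, predicted and Rik genes; 367 compared, 2 higher and 8 lower), members of the lists, the 2 genes nearest the limit on each side, and the 5 most abundant; any other was chosen after its values were seen. Positions and promoters come from RefSeq, matched for 22565 of 23983 genes by symbol and 23838 with synonyms, and 23824 were placed. Reads behind a value come from FPKM times transcript length for 11560 genes with 1 transcript, and intervals are Poisson intervals that cover counting error after removal of duplicate molecules. Alternatives changed the pseudocount, the minimum, the fold, the scaling, the embryonic minimum and the distance to a peak. The rule was tested on simulated data. Some genes of the lists are not reported here by name. Calculations used Python 3.11.15, numpy 2.4.6 and pandas 2.3.3, and plots matplotlib 3.10.9.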

Additional observations from a re-analysis of the deposited data

How the results depend on the processing

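No paired analysis was possible because each group has 1 library, and for the same reason no replicate could be left out. With a pseudocount of 5 FPKM in place of 1, which shrinks the ratios of weak genes, 63 genes were higher and 92 lower, and 26 list members were higher and 26 lower in place of 50 and 41. A 2-fold limit gave 319 and 548 genes, and a 5-fold limit 87 and 112, with 27 list members lower. With smaller pseudocounts, minimums of 1 or 10 FPKM or none, either scaling, or small RNA genes left out, 116 to 216 genes were higher and 178 to 354 lower. Scaling raised the ratios slightly, so that the median over all compared genes, −0.03 as reported, was −0.01 (median of ratios) or 0.03 (equal sums), and the higher share of called genes, 38.8%, became 40.5% and 41.9%. No list median changed sign under either scaling, but 3 lists with few members above the minimum did so under other settings. The median of intermediate mesoderm, reported as 0.56, was −0.15 with a pseudocount of 5 and −2.02 at a minimum of 10 FPKM. That of Fgf ligands, reported as −0.38, was 0.28 at a minimum of 1 FPKM and 0.16 without a minimum, and that of fibroblast genes, 1.25 for the 1 gene that entered, was −0.07 and −0.05. Without a minimum several other medians kept their sign but were much smaller in size. Examples are naive pluripotency with −0.87 (reported as −2.77) and the Nodal pathway with −1.03 (−2.86). Lateral plate, somite and *HoxA* genes had 1.00, 1.08 and 0.95 (reported as 3.28, 2.81 and 3.50). Several lists kept 0 calls under a stricter setting. With a pseudocount of 5 these were Wnt ligands, extracellular matrix, immediate early genes, notochord and endoderm. At 5-fold they were presomitic mesoderm, Notch, Wnt feedback, Wnt ligands, extracellular matrix, cell cycle and p53 targets. At minimums of 1 and 10 FPKM the share of higher genes present in E8.5 MPs was 89.7% and 55.8%, of lower genes 45.8% and 19.2% and of all genes 90.7% and 61.3%; for E9.5 they were 86.1% and 58.2%, 51.5% and 13.8%, and 96.8% and 64.5%. A T peak within 50000 bp and within 1000 bp was found for 48.5% and 4.85% of higher, 40.7% and 3.49% of lower and 31.9% and 4.97% of all genes, and these shares move because the minimum or distance itself does. With peaks of q at most 0.001 alone, within 5000 bp, the shares were 16.4% of higher, 9.30% of lower and 6.33% of all genes. Of 473 values for 43 named genes under these settings 0 turned their direction, 13 no longer passed the limit, among them *Foxa2* (−1.49 with a pseudocount of 5), and 21 newly passed it, among them *Sox2* (1.62 with 0.1). *Fos* and *Pawr* came to lie within the limit under both scalings, at −1.56 and −1.53 for *Fos*.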

Other observations

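Lists made after their values were seen describe further groups among the called genes, and nothing is supported by them. The largest is that of amino acid supply and the response to the transcription factor Atf4, which cells use when amino acids are short or the endoplasmic reticulum is under stress. Of 30 genes 27 entered the comparison, 12 were lower in MP diff and 0 higher, all 27 had ratios below 0, and the median was −1.52. *Asns*, the asparagine synthetase gene, had 244 FPKM in NMP diff and 56.4 FPKM in MP diff (−2.09), the amino acid transporter genes *Slc7a3* and *Slc7a5* 31.7 and 1.56 FPKM (−3.68) and 117 and 23.7 FPKM (−2.25), and *Trib3* and *Chac1*, further targets, 10.8 and 1.08 FPKM and 13.6 and 1.97 FPKM. *Atf4* itself was at 183 and 82.5 FPKM (−1.14). Both cultures used the same named medium, and how long it had been on the cells is not given in the sources used here. Both metallothionein genes that entered were lower, *Mt1* with 101 and 10.6 FPKM (−3.14) and *Mt2*.

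Genes of antigen presentation and the interferon response were lower in part. Of 16 genes 10 entered, 6 were lower and 1 higher (median −1.76). *H2-K1*, a class I heavy chain gene, had 48.1 and 11.8 FPKM, *Irf1* 21.6 and 1.93 FPKM and *Bst2* 27.6 and 2.89 FPKM, whereas *B2m* was at 33.8 and 38.4 FPKM. The higher gene was *Ifitm1*, also known from early mesoderm, with 37.9 and 176 FPKM (2.18). Of 21 genes of the actin cytoskeleton and Srf targets 18 entered, 7 were lower and 0 higher, and all 18 had ratios below 0. *Tagln* (26.2 and 1.56 FPKM; −3.41), *Cnn1* (8.87 and 0.656 FPKM; −2.58) and *Myl9* (9.96 and 1.12 FPKM; −2.37), genes of contractile filaments, led them.

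Several developmental regulators lay outside the lists of the report. All 3 Teashirt genes, zinc finger factors of the trunk, were higher, *Tshz1* with 1.09 and 14.2 FPKM, *Tshz2* with 0.0280 and 5.59 FPKM and *Tshz3* with 0.502 and 9.10 FPKM. They entered through MP diff alone, so their direction follows from the minimum. Of 7 Meis and Pbx genes 6 entered, and *Meis2* (2.07 and 24.8 FPKM; 3.07) was higher besides *Meis1*, with 0 lower. *Meis1* and *Meis2* also entered through MP diff alone. *Hmga2*, a chromatin protein gene and target of let-7, had 37.0 and 325 FPKM (3.10), and among 10 let-7 targets 3 were higher, with *Mycn* (11.7 and 49.2 FPKM) and *Igf2bp2* (19.2 and 76.1 FPKM) the others, and 0 lower. *Gpc3*, a glypican gene, reached 512 FPKM from 68.8 FPKM (2.88). In the opposite direction *Zic2* (54.6 and 8.37 FPKM; −2.57) and *Zic5* (12.1 and 0.675 FPKM; −2.97) were lower. Among 16 of 23 Polycomb subunit genes that entered, *Bmi1* was higher (5.11 and 23.0 FPKM; 1.98) and *Cbx7*, which is high in pluripotent cells, lower (11.3 and 0.556 FPKM; −2.99), with a list median of 0.02. Some lower genes had no read left: *Olig1* had 10.7 FPKM in NMP diff from 647 reads and *Galnt3* 7.34 FPKM from 755 reads, and both are listed at 0 in MP diff.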
